A study of Arabidopsis thaliana with 12 samples.

Results

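The double mutant smxl4-1 smxl5-1 of Arabidopsis thaliana was compared with WT across all genes in 6 of the 12 libraries of the series, 3 of each group. The members were taken by their genotype labels alone. The double-mutant seedlings carried smxl4-1 and smxl5-1, mutant alleles of SMXL4 and SMXL5, in the Col background, and the WT seedlings were Col-0. Both groups were whole seedlings harvested at 7 days from plates of 1/2 MS medium, under 12 h of light and 12 h of darkness (a regime the labels call long day) at 21 °C, and each replicate pooled 15 seedlings. The other libraries hold the single mutant smxl5-1 and the mutant smax1-2, which carries a mutant allele of SMAX1, with 3 replicates each. Poly-A RNA was sequenced. The labels call the replicates biological and do not say whether they came from separate plates or days.

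The SMXL family consists of nuclear proteins that resemble a heat-shock chaperone and regulate transcription. SMAX1 and its relatives are removed when the karrikin or strigolactone pathway is active, whereas SMXL4 and SMXL5, with SMXL3, are known in Arabidopsis for their role in the formation of phloem, the tissue that carries sugar out of leaves. Anthocyanins are red vacuolar pigments of the flavonoid pathway, and in Arabidopsis seedlings a MYB activator, with bHLH and WD40 partners, switches on the late enzymes that make them. Aliphatic glucosinolates are sulfur-rich defence compounds made from methionine.

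Values are FPKM (fragments per kilobase of transcript, scaled to library size), summed per gene over the assembled transcript pieces listed for it, so a 0 means that no piece was listed and is not a measured absence. Log2 fold changes are double mutant over WT on the log2(FPKM + 1) scale, which understates changes of low genes, and adjusted p is limma's after Benjamini-Hochberg correction for the 19656 genes tested, with calls made under 0.05. None of the deposited tables holds counts, and 20670000 to 23770000 fragments per library could be inferred from the deposited bounds, with 18628 to 18993 genes listed in each of the 6 libraries. Double-mutant replicate 2 stood apart in its assembly. It held 31919 pieces of a median of 745 bases, of which 31.8% matched a reference transcript in full, against 28197 to 29876 pieces, medians of 890 to 974 bases and 39.5% to 45.6% in the other 5 libraries. Short pieces carry inflated FPKM, so a second fit weighted each piece by effective length, and only genes called in the same direction in both fits are described as changed below. Where that library or any other decides a call, the values without it are given.

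The labelled material, whole seedlings, was checked against marker lists. The summed level of 22 photosynthesis genes ranged from 116421 to 120379 FPKM in the double mutant, against 114960.0 to 133673 FPKM in WT. For root markers, the summed level of 16 endodermis and suberin genes was 149 to 193 FPKM in the double mutant, against 147 to 189 FPKM in WT, and that of 8 root hair genes was 29.7 to 45.5 FPKM in the double mutant, against 24.0 to 34.2 FPKM in WT. The 17 phloem genes summed to 182 to 193 FPKM in the double mutant, against 190.5 to 203 FPKM in WT, with 3 of them, NAC045, NAC086 and NEN4, at 0 in all 6 libraries. The 16 xylem and cambium genes summed to 119 to 161 FPKM in the double mutant, against 107 to 134 FPKM in WT. Of the 8 flower and pollen markers 6 were at 0 in all 6 libraries. The 8 seed markers, 4 of which were at 0 throughout, summed to 2.69 to 22.8 FPKM in the double mutant, against 0 FPKM in WT. Only 1 of the 8, SESA2, passed the filter for testing, and it was not called. SESA2 was listed at 11.7, 9.84 and 2.69 FPKM in the double-mutant libraries, against 0 FPKM in all 3 WT libraries (adjusted p = 0.397). CRA1, OLEO1 and OLEO2 were listed in double-mutant replicate 2 alone among the 6 libraries and could not be called. The part of the seed markers in the results was not tested. In whole seedlings, fewer cells of a type and less RNA per cell cannot be told apart.

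Of 19656 tested genes, 223 were called (1.13%), 124 higher (0.631%) and 99 lower (0.504%) in the double mutant. With both weightings 212 were called (1.08%), 116 higher (0.59%) and 96 lower (0.488%). Flavonoid and anthocyanin genes led the higher ones, and a set of genes with no listed piece in any double-mutant library led the lower ones. Of the 223, 111 reached an absolute log2 fold change of 1, and the median was 0.99 among those called higher and 1.01 among those called lower. The double-mutant and WT libraries did not overlap for any of the 223, which was the case for 19.1% of all tested genes (12.5% with the double mutant above WT and 6.61% with it below). The fit with effective length called 448 of 18884 genes (2.37%), 261 higher (1.38%) and 187 lower (0.99%). WT levels of the called genes differed by direction, with a median of 12.2 FPKM for genes called higher and 40.9 FPKM for genes called lower. The median log2 fold change of all tested genes was 0.07. The share of all tested genes with a positive change was not computed, so counts of positive changes in the lists below are descriptions. The split of the calls moved with the scaling, to 94 higher and 120 lower with median-of-ratios scaling. Of the 223 calls, 68 (38 higher and 30 lower) were called whichever library was left out, and the total fell to 95 both without WT replicate 1 and without WT replicate 2, to 112 without WT replicate 3, to 134 without double-mutant replicate 2 and to 137 without double-mutant replicate 3.

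**Figure D1:**
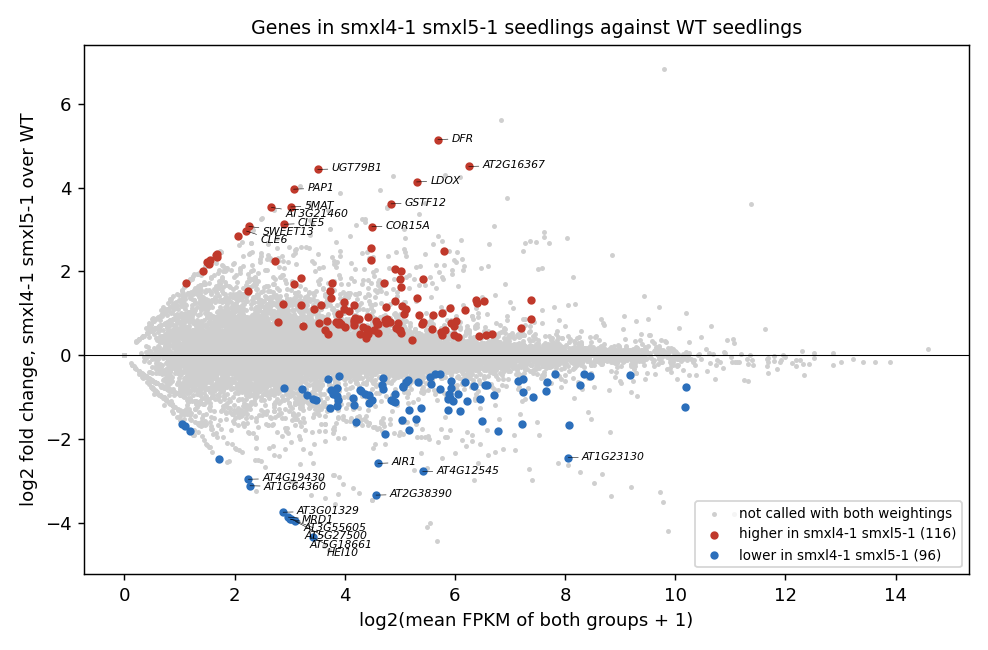
Log2 fold change of each tested gene, double mutant over WT (y axis), against the log2 of its mean FPKM over both groups plus 1 (x axis). Red points are the 116 genes called higher and blue points the 96 called lower with both weightings, grey points all others, and the 12 largest of each direction are named. DFR lies highest among the called genes at 5.15, and the named genes at the lower left edge are those with no listed piece in the double mutant.

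The mutated genes themselves were not lower in the double mutant. SMXL5 (AT5G57130, chromosome 5, 23144947 to 23149615 on TAIR10.1) was listed at 9.0, 9.01 and 18.23 FPKM in the double-mutant libraries, against 3.47, 5.18 and 4.75 FPKM in the WT libraries. The smxl5-1 libraries stood at 42.4, 50.6 and 40.0 FPKM, those of smax1-2 at 5.21, 5.29 and 5.11 FPKM. All 3 double-mutant libraries lay above all 3 WT libraries (log2 fold change 1.199 ± 0.24 (SE), adjusted p = 0.0467), yet SMXL5 kept its call without double-mutant replicate 3 and lost it without each of the other 5 libraries (adjusted p = 0.055 to 0.173). With effective length the log2 fold change was 0.87 (adjusted p = 0.016). Each double-mutant library held a short SMXL5 piece, of 167, 176 and 129 bases, whereas the WT pieces were 255 bases or longer, and in the double mutant SMXL5 stood below smxl5-1 (adjusted p = 0.0047). SMXL4 (AT4G29920, chromosome 4, 14632413 to 14636101) was listed at 4.85, 2.75 and 4.81 FPKM in the double-mutant libraries, against 3.01, 1.81 and 2.06 FPKM in the WT libraries, groups that overlapped and did not pass (adjusted p = 0.686). SMAX1, their relative in karrikin signalling, was listed at 32.1, 24.95 and 27.6 FPKM in the double-mutant libraries, against 22.5, 21.3 and 21.3 FPKM in the WT libraries (adjusted p = 0.328). The alleles' kind is not stated in the labels, so a transcript level does not check them.

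None of the genes near the mutated genes was called. Within 50 kb, 22 tested genes around SMXL4 had a lowest adjusted p of 0.204 and 18 around SMXL5 one of 0.351. The nearest genes with a value were ORC5, a subunit of the origin recognition complex, and the bHLH gene AT4G29930 beside SMXL4, and AT5G57123 and the purple acid phosphatase gene PAP28 beside SMXL5. ORC5 was listed at 5.42, 7.597 and 5.88 FPKM in the double-mutant libraries, against 6.03, 5.15 and 6.03 FPKM in the WT libraries (adjusted p = 0.843). AT4G29930 was listed at 6.32, 7.87 and 4.63 FPKM in the double-mutant libraries, against 5.92, 5.05 and 6.60 FPKM in the WT libraries (adjusted p = 0.974). The other two were at or below 6.75 FPKM in every library of both groups (adjusted p = 0.425 and 0.949).

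Most tested genes of flavonoid synthesis were higher in the double mutant. Of 10 tested early genes, from chalcone synthase to the flavonol glycosyltransferases, 7 were called higher and none lower, with a list median of 0.89. Of 9 late genes, which turn dihydroflavonols into decorated anthocyanins, 6 were called higher and none lower, with a median of 3.54. Over all tested genes 0.631% were called higher. All log2 fold changes of both lists were positive, against a median of 0.07 over all tested genes, and by effective length 1 of the early genes was negative (2 with quantile normalization as well). Of 16 genes of general phenylpropanoid metabolism, which supplies the pathway, none was called and the median was 0.14. Its gene with the smallest p, 4CL1, which makes the coumaroyl-CoA that enters the pathway, was listed at 80.3, 168 and 68.0 FPKM in the double-mutant libraries, against 63.8, 53.4 and 59.5 FPKM in the WT libraries (adjusted p = 0.309).

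DFR (AT5G42800, chromosome 5, 17164093 to 17166032), dihydroflavonol reductase, was listed at 104, 94.2 and 99.7 FPKM in the double-mutant libraries, against 1.17, 3.14 and 1.51 FPKM in the WT libraries. The double-mutant values were close to each other and far above every WT value (log2 fold change 5.15 ± 0.41 (SE), adjusted p = 0.000331). Values were 2.30, 5.21 and 7.11 FPKM for smxl5-1, with 7.49, 6.64 and 2.38 FPKM for smax1-2. LDOX, the next enzyme, was listed at 88.7, 72.0 and 60.5 FPKM in the double-mutant libraries, against 2.63, 4.22 and 2.91 FPKM in the WT libraries (log2 fold change 4.14 ± 0.24 (SE), adjusted p = 6.06e-05). GSTF12, a glutathione transferase needed to bring anthocyanin into the vacuole, was listed at 51.0, 55.9 and 48.7 FPKM in the double-mutant libraries, against 2.92, 4.32 and 2.86 FPKM in the WT libraries (log2 fold change 3.61 ± 0.23 (SE), adjusted p = 7.85e-05). The comparisons of the double mutant with smxl5-1 (2.99% of all genes called) and with smax1-2 (1.55%) share its 3 libraries with the comparison against WT. In them the adjusted p of these genes was 6.99e-05 to 0.00122 against smxl5-1 and 0.000182 to 0.0013 against smax1-2. These mutants had values of at most 8.87 FPKM for any of the 3.

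Genes of decorating enzymes rose as well. UGT79B1, which adds xylose to anthocyanin, was listed at 23.9, 20.0 and 18.5 FPKM in the double-mutant libraries, against 0 FPKM in all 3 WT libraries (adjusted p = 0.00503). No WT library held a piece of it. 5MAT, a malonyltransferase of anthocyanins, was listed at 13.4, 13.5 and 14.6 FPKM in the double-mutant libraries, against 0, 1.08 and 0 FPKM in the WT libraries (log2 fold change 3.54 ± 0.52 (SE), adjusted p = 0.011), and was not called if WT replicate 1 or WT replicate 3 was left out (adjusted p = 0.0501 to 0.0541). SCPL10, which acylates anthocyanins with sinapate, was listed at 55.8, 40.6 and 42.5 FPKM in the double-mutant libraries, against 22.5, 20.3 and 19.6 FPKM in the WT libraries (log2 fold change 1.11 ± 0.14 (SE), adjusted p = 0.00624). UGT75C1, which glucosylates them, averaged 40.0 ± 8.44 FPKM in the double mutant and 23.7 ± 11.7 FPKM in WT and passed only with effective length (adjusted p = 0.519 by plain and 0.000229 by effective length).

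Upstream, chalcone synthase (CHS), the first enzyme of the pathway, was listed at 272, 239.6 and 204 FPKM in the double-mutant libraries, against 113, 94.4 and 77.1 FPKM in the WT libraries (log2 fold change 1.33 ± 0.16 (SE), adjusted p = 0.00419). F3H, flavanone 3-hydroxylase, was listed at 54.5, 53.7 and 36.0 FPKM in the double-mutant libraries, against 15.6, 12.2 and 16.5 FPKM in the WT libraries (log2 fold change 1.63 ± 0.17 (SE), adjusted p = 0.00166). Both enzymes act before the branch to anthocyanin. CHIL, a non-catalytic partner of chalcone synthase, was listed at 112, 136 and 109 FPKM in the double-mutant libraries, against 48.9, 47.3 and 50.8 FPKM in the WT libraries (log2 fold change 1.26 ± 0.13 (SE), adjusted p = 0.00166). The flavonol and anthocyanin glucosyltransferase UGT78D2 was listed at 48.0, 45.4 and 40.6 FPKM in the double-mutant libraries, against 18.23, 21.1 and 18.1 FPKM in the WT libraries (log2 fold change 1.18 ± 0.10 (SE), adjusted p = 0.000427). In all 4 the double-mutant libraries lay above the WT libraries with a wide gap, and the folds were below those of DFR, LDOX and GSTF12. TT7, flavonoid 3'-hydroxylase, averaged 13.6 ± 4.91 FPKM in the double mutant and 2.92 ± 0.550 FPKM in WT (adjusted p = 0.0139), and was not called if double-mutant replicate 1, WT replicate 2 or WT replicate 3 was left out (adjusted p = 0.0542 to 0.0682). CHI, chalcone isomerase, rose less (log2 fold change 0.60 ± 0.08 (SE), adjusted p = 0.00784), and the smallest change, in the rhamnosyltransferase UGT78D1 (adjusted p = 0.0415), lost its call when any 1 of the 6 libraries was left out (adjusted p = 0.0879 to 0.158).

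Among 8 tested regulators of anthocyanin, 1 rose and 1 fell, and the list median was -0.05. PAP1 (AT1G56650, chromosome 1, 21233555 to 21235292), the MYB activator of the late genes, was listed at 13.02, 18.5 and 12.9 FPKM in the double-mutant libraries, against 0 FPKM in all 3 WT libraries (adjusted p = 0.00141). In smxl5-1 it had 0, 1.58 and 0 FPKM, while smax1-2 had 1.40, 2.148 and 3.63 FPKM. Its closest relatives PAP2, MYB113 and MYB114 were at 0 in all 6 libraries. MYBL2, a repressor that competes with PAP1 for bHLH partners, was listed at 36.1, 39.6 and 41.2 FPKM in the double-mutant libraries, against 76.7, 79.1 and 82.4 FPKM in the WT libraries, groups that did not overlap (log2 fold change -1.01 ± 0.11 (SE), adjusted p = 0.00166). TT8, one of those bHLH partners, was listed at 2.86, 36.5 and 0 FPKM in the double-mutant libraries, against 0, 0.907 and 0 FPKM in the WT libraries, and did not pass the filter for testing. Its one high value is in double-mutant replicate 2, the library with the short pieces.

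**Figure D2:**
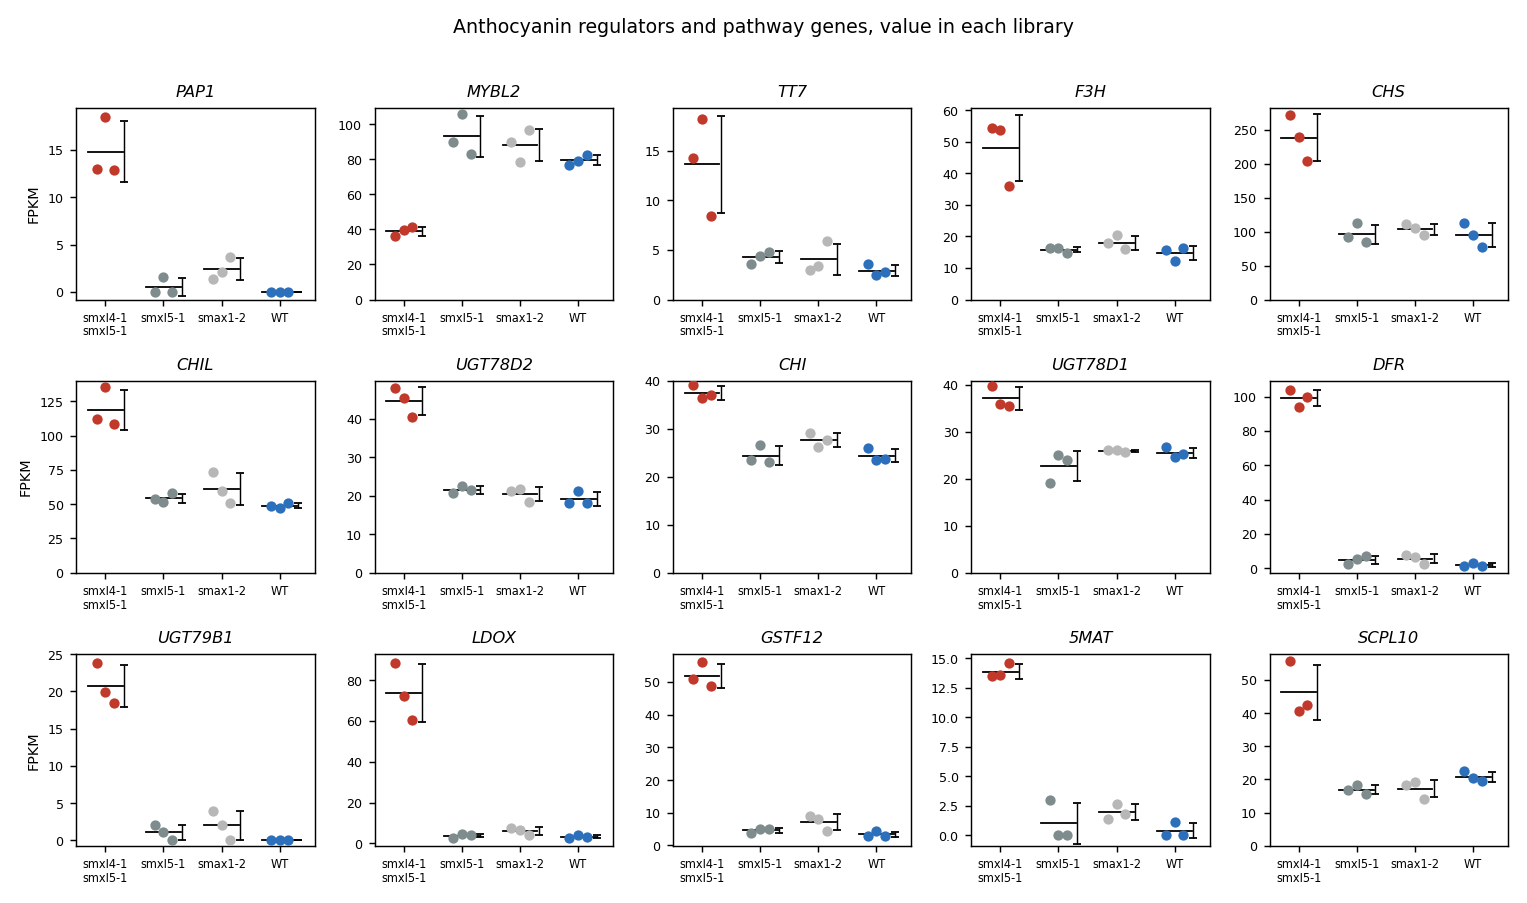
FPKM (y axis, linear, 1 panel per gene) in each library for 15 genes of anthocyanin regulation and flavonoid synthesis, with the double mutant at the left of each panel, then smxl5-1, smax1-2 and WT. Points are libraries, horizontal lines means and bars 1 SD (n = 3). In 14 panels the double-mutant points lie above all others, and in the panel of MYBL2 they lie below.

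The promoters of the flavonoid genes that rose were compared by their letters. Those shown are from genes that moved together and all hold the motif CACGTG, with the 250 bases before the annotated gene start of TAIR10.1 read 5′ to 3′. Several genes that rose with them lack it and are not shown. Capitals mark a G-box (CACGTG) or, in SCPL10, the overlapping AC element ACCAACC on either strand.
DFR (chr5:17166033-17166282, minus strand): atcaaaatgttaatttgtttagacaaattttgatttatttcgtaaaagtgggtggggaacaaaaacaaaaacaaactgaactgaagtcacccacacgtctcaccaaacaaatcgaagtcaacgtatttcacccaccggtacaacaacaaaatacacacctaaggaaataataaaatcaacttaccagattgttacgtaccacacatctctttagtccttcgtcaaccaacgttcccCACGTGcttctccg
UGT79B1 (chr5:21938397-21938646, minus strand): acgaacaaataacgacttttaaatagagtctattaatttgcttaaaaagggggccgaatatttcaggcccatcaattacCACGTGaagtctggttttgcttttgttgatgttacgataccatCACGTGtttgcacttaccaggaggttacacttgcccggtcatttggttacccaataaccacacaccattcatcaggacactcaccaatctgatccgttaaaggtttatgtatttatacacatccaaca
CHS (chr5:4488226-4488475, plus strand): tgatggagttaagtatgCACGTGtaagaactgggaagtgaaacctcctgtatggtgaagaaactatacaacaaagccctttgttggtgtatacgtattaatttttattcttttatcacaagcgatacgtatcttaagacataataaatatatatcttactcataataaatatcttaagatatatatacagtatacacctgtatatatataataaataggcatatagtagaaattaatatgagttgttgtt
SCPL10 (chr2:9791916-9792165, plus strand): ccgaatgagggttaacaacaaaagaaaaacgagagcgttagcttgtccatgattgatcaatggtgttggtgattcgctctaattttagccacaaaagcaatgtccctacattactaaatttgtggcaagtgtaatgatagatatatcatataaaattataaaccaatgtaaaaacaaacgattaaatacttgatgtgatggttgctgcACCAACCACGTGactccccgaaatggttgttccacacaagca
The G-box, a motif bound by bHLH and bZIP proteins, lay 14 bases before the start of DFR, at 171 and 128 bases before UGT79B1, at 233 before CHS and at 36 before SCPL10. It was also read 67 bases before CHIL and 249 before F3H, so that 6 of the 13 genes called higher in the early and late lists held it (46.15%). Over all 27443 protein-coding genes 1780 held it (6.486%), over the 113 genes called higher with a promoter read 22 did (19.47%), and over the 94 called lower 6 did (6.383%). LDOX, GSTF12 and PAP1 had none in this window. ACCAACC was in 1 of the 13, the promoter of SCPL10, and in 2.689% of all promoters. ACCTACC, AAAATATCT and CCGAC were in none of the 13, and in 1.162%, 2.361% and 11.97% of all promoters. A match describes letters and is not evidence of binding.

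Some genes of aliphatic glucosinolates rose. Of 14 tested, 5 were called higher and none lower, all 14 log2 fold changes were positive, and the median was 0.53. With effective length 8 were called. The shares of all tested genes called higher were 0.631% in the main fit and 1.38% with effective length. FMOGS-OX3, which oxidises the side chain, was listed at 32.4, 30.3 and 24.9 FPKM in the double-mutant libraries, against 16.5, 16.7 and 15.3 FPKM in the WT libraries (log2 fold change 0.81 ± 0.11 (SE), adjusted p = 0.00775). It was called whichever 1 library was left out. MYB28, the main activator of the pathway, was listed at 45.9, 52.2 and 56.5 FPKM in the double-mutant libraries, against 26.9, 29.9 and 34.98 FPKM in the WT libraries (log2 fold change 0.74 ± 0.11 (SE), adjusted p = 0.0147). The call held without double-mutant replicate 1 or WT replicate 3 and not without any of the other 4 libraries (adjusted p = 0.0566 to 0.0691). FMOGS-OX1, a relative of FMOGS-OX3, was listed at 21.9, 15.1 and 17.5 FPKM in the double-mutant libraries, against 10.9, 9.56 and 10.48 FPKM in the WT libraries (log2 fold change 0.75 ± 0.13 (SE), adjusted p = 0.0289). FMOGS-OX1 kept its call without double-mutant replicate 2 and lost it without each of the other 5 libraries (adjusted p = 0.0671 to 0.122). The sulfotransferase SOT18 (log2 fold change 0.55, adjusted p = 0.0366) and the glucosyltransferase UGT74C1 (log2 fold change 0.45, adjusted p = 0.0377) were the other two. SOT18 lost its call when any 1 of the 6 libraries was left out (adjusted p = 0.0682 to 0.142). UGT74C1 kept its call without double-mutant replicate 2 and lost it without each of the other 5 libraries (adjusted p = 0.0726 to 0.149). Median-of-ratios scaling called 2 of the 14 and quantile normalization 3, with every log2 fold change positive under both. Of 8 tested genes of indole glucosinolates none was called, with a median of 0.32. CYP79B2, the entry enzyme from tryptophan, was listed at 51.1, 26.95 and 39.1 FPKM in the double-mutant libraries, against 17.57, 16.8 and 21.4 FPKM in the WT libraries (adjusted p = 0.102), groups that did not overlap.

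Genes that handle carbon moved in part. Of 18 tested starch synthesis genes 2 were called higher and none lower, every one had a positive log2 fold change (17 of 18 with quantile normalization or median-of-ratios scaling), and the median was 0.31. The share of all tested genes called higher was 0.631%. APL3, a large subunit of ADP-glucose pyrophosphorylase, was listed at 21.3, 20.7 and 13.2 FPKM in the double-mutant libraries, against 7.00, 5.97 and 6.32 FPKM in the WT libraries (log2 fold change 1.36 ± 0.22 (SE), adjusted p = 0.016). APL3 stayed called without double-mutant replicate 3, but not when any of the other 5 libraries was left out (adjusted p = 0.0548 to 0.075). SBE2.1, a branching enzyme, was listed at 23.1, 27.1 and 24.0 FPKM in the double-mutant libraries, against 16.5, 14.1 and 16.3 FPKM in the WT libraries (log2 fold change 0.63 ± 0.10 (SE), adjusted p = 0.0147). The call was lost without double-mutant replicate 2 or WT replicate 2 (adjusted p = 0.0547 to 0.0682). Of 19 starch breakdown genes 2 were called higher, with a median of 0.41. PHS2, the cytosolic glucan phosphorylase, was listed at 31.1, 31.6 and 26.0 FPKM in the double-mutant libraries, against 17.2, 17.0 and 17.37 FPKM in the WT libraries (log2 fold change 0.74 ± 0.10 (SE), adjusted p = 0.00733), and was called whichever 1 library was left out. PWD, which phosphorylates starch, was close to the threshold (adjusted p = 0.0468) and lost its call when any 1 of the 6 libraries was left out (adjusted p = 0.109 to 0.18). Between the double mutant and smxl5-1, SBE2.1, PHS2 and PWD did not pass (adjusted p = 0.0949, 0.139 and 0.0622).

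Among 27 tested genes of sugar transport and sucrose metabolism 2 were called higher, and the list median was -0.06. The shares over all tested genes were 0.631% higher and 0.504% lower. SWEET12, which exports sucrose from leaf cells toward the phloem, was listed at 45.6, 37.0 and 35.04 FPKM in the double-mutant libraries, against 9.23, 12.7 and 11.4 FPKM in the WT libraries (log2 fold change 1.73 ± 0.15 (SE), adjusted p = 0.000589). The smxl5-1 libraries stood at 13.4, 16.6 and 13.8 FPKM, those of smax1-2 at 11.2, 11.7 and 8.95 FPKM. SUS3, a sucrose synthase, was listed at 4.90, 5.36 and 8.06 FPKM in the double-mutant libraries, against 1.16, 1.64 and 1.39 FPKM in the WT libraries (log2 fold change 1.54 ± 0.24 (SE), adjusted p = 0.0149). The call held without double-mutant replicate 1 or double-mutant replicate 2 and not without any of the other 4 libraries (adjusted p = 0.0502 to 0.0687). In smxl5-1 SUS3 stood at 2.68, 3.39 and 3.35 FPKM (adjusted p = 0.134 against the double mutant). SWEET13 (AT5G50800, chromosome 5, 20665068 to 20667312), a close relative of SWEET12 that is outside that list, was listed at 5.48, 8.78 and 8.45 FPKM in the double-mutant libraries, against 0 FPKM in all 3 WT libraries (adjusted p = 0.0165). With effective length the double-mutant values of SWEET13 were 5.41, 5.06 and 4.03 FPKM. Values were 0, 0 and 2.71 FPKM for smxl5-1, with 0 FPKM for smax1-2. SWEET13 kept its call without double-mutant replicate 1 and lost it without each of the other 5 libraries (adjusted p = 0.0609 to 0.0741). SWEET13 passed the filter for testing only through the double mutant, so its p values are not independent support. Of 13 sugar-starvation genes 1, EXL2, was called lower (43.7 ± 2.41 FPKM in the double mutant and 60.2 ± 2.88 FPKM in WT, adjusted p = 0.0316), the list median was -0.31, and EXL2 lost its call when any 1 of the 6 libraries was left out (adjusted p = 0.0538 to 0.128). With effective length 4 of 12 tested sugar-starvation genes were called lower, beside 0.99% of all tested genes in that fit. None of 13 phloem genes was called, and their median was -0.02. The phloem gene with the smallest p was the receptor kinase gene BAM3 (BARELY ANY MERISTEM) of protophloem, listed at 14.2, 16.6 and 14.3 FPKM in the double-mutant libraries, against 8.74, 11.6 and 12.5 FPKM in the WT libraries (adjusted p = 0.351).

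Of 23 tested cold and dehydration genes 4 were called higher and none lower, with a median of 0.59. The share of all tested genes called higher was 0.631%. COR15A (AT2G42540, chromosome 2, 17710441 to 17712330), which protects chloroplast membranes in the cold, was listed at 25.9, 54.9 and 37.3 FPKM in the double-mutant libraries, against 4.08, 3.27 and 3.52 FPKM in the WT libraries (log2 fold change 3.07 ± 0.29 (SE), adjusted p = 0.000952). No library of the other 3 groups exceeded 7.65 FPKM. Its promoter is shown because it holds 2 of the motifs searched, with CCGAC, the core bound by CBF regulators, 142 and 79 bases before the start and a G-box at 28, all in capitals.
COR15A (chr2:17712331-17712580, minus strand): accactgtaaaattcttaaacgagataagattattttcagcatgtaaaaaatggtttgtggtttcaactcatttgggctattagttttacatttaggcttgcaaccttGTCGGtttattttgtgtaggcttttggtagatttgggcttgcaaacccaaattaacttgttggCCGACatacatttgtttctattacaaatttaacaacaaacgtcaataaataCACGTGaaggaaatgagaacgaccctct
ABI1, a phosphatase that restrains abscisic acid signalling, was listed at 30.4, 35.8 and 32.6 FPKM in the double-mutant libraries, against 17.59, 19.3 and 19.3 FPKM in the WT libraries (log2 fold change 0.78 ± 0.11 (SE), adjusted p = 0.011). Leaving out WT replicate 1 ended the call (adjusted p = 0.0548). In smxl5-1 ABI1 stood at 26.2, 35.1 and 27.3 FPKM (adjusted p = 0.522 against the double mutant). Its relative ABI2 averaged 7.80 ± 1.26 FPKM in the double mutant and 4.01 ± 0.118 FPKM in WT (adjusted p = 0.0389), and kept its call without double-mutant replicate 1 and lost it without each of the other 5 libraries (adjusted p = 0.123 to 0.139). P5CS1, of proline synthesis, was listed at 56.2, 77.7 and 64.8 FPKM in the double-mutant libraries, against 16.6, 18.5 and 18.24 FPKM in the WT libraries (log2 fold change 1.83 ± 0.33 (SE), adjusted p = 0.0289). Leaving out any 1 of the 6 libraries ended the call (adjusted p = 0.0602 to 0.118). In smxl5-1 P5CS1 stood at 25.1, 67.3 and 27.6 FPKM (adjusted p = 0.221 against the double mutant). Its annotation overlaps that of AT2G39795, which was listed at 0 FPKM in all 3 double-mutant libraries, against 20.5, 22.2 and 24.9 FPKM in the WT libraries (adjusted p = 0.0611), so reads of the overlap may be assigned to either gene.

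Some other lists held 1 to 3 called genes. For comparison, 0.631% of all tested genes were called higher. Of 21 tested jasmonate genes 3 were called higher, with a median of 0.45. LOX2, which starts jasmonate synthesis in the plastid, was listed at 144, 86.7 and 126 FPKM in the double-mutant libraries, against 43.6, 43.9 and 52.0 FPKM in the WT libraries (log2 fold change 1.31 ± 0.19 (SE), adjusted p = 0.011). The call was lost without WT replicate 1 or WT replicate 2 (adjusted p = 0.0544 to 0.0563). In smxl5-1 LOX2 stood at 81.6, 107 and 77.6 FPKM. AOC2, allene oxide cyclase, was listed at 132, 98.1 and 159 FPKM in the double-mutant libraries, against 56.1, 45.6 and 54.2 FPKM in the WT libraries (log2 fold change 1.28 ± 0.20 (SE), adjusted p = 0.0134). Leaving out WT replicate 2 ended the call (adjusted p = 0.0681). OPR3, a reductase of the same route, averaged 23.8 ± 3.47 FPKM in the double mutant and 14.6 ± 2.52 FPKM in WT (adjusted p = 0.0491), and kept its call without double-mutant replicate 2 or WT replicate 3 and lost it without each of the other 4 libraries (adjusted p = 0.137 to 0.173). All 3 encode enzymes of synthesis. Of 18 iron deficiency genes 1, NAS4, was called higher, the median was 0.67, and all 18 log2 fold changes were positive. Quantile normalization called 0 of the 18. NAS4, a nicotianamine synthase, was listed at 59.2, 34.7 and 38.7 FPKM in the double-mutant libraries, against 18.4, 23.3 and 22.3 FPKM in the WT libraries (log2 fold change 0.99 ± 0.17 (SE), adjusted p = 0.0261). NAS4 stayed called without double-mutant replicate 1 or double-mutant replicate 2, but not when any of the other 4 libraries was left out (adjusted p = 0.0526 to 0.111). LSU1, a gene that rises when sulfur is short, was the 1 of 13 sulfate genes called, at 82.0, 105 and 104 FPKM in the double-mutant libraries, against 49.0, 49.6 and 38.5 FPKM in the WT libraries (log2 fold change 1.07 ± 0.15 (SE), adjusted p = 0.0102), and was called whichever 1 library was left out.

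**Figure D3:**
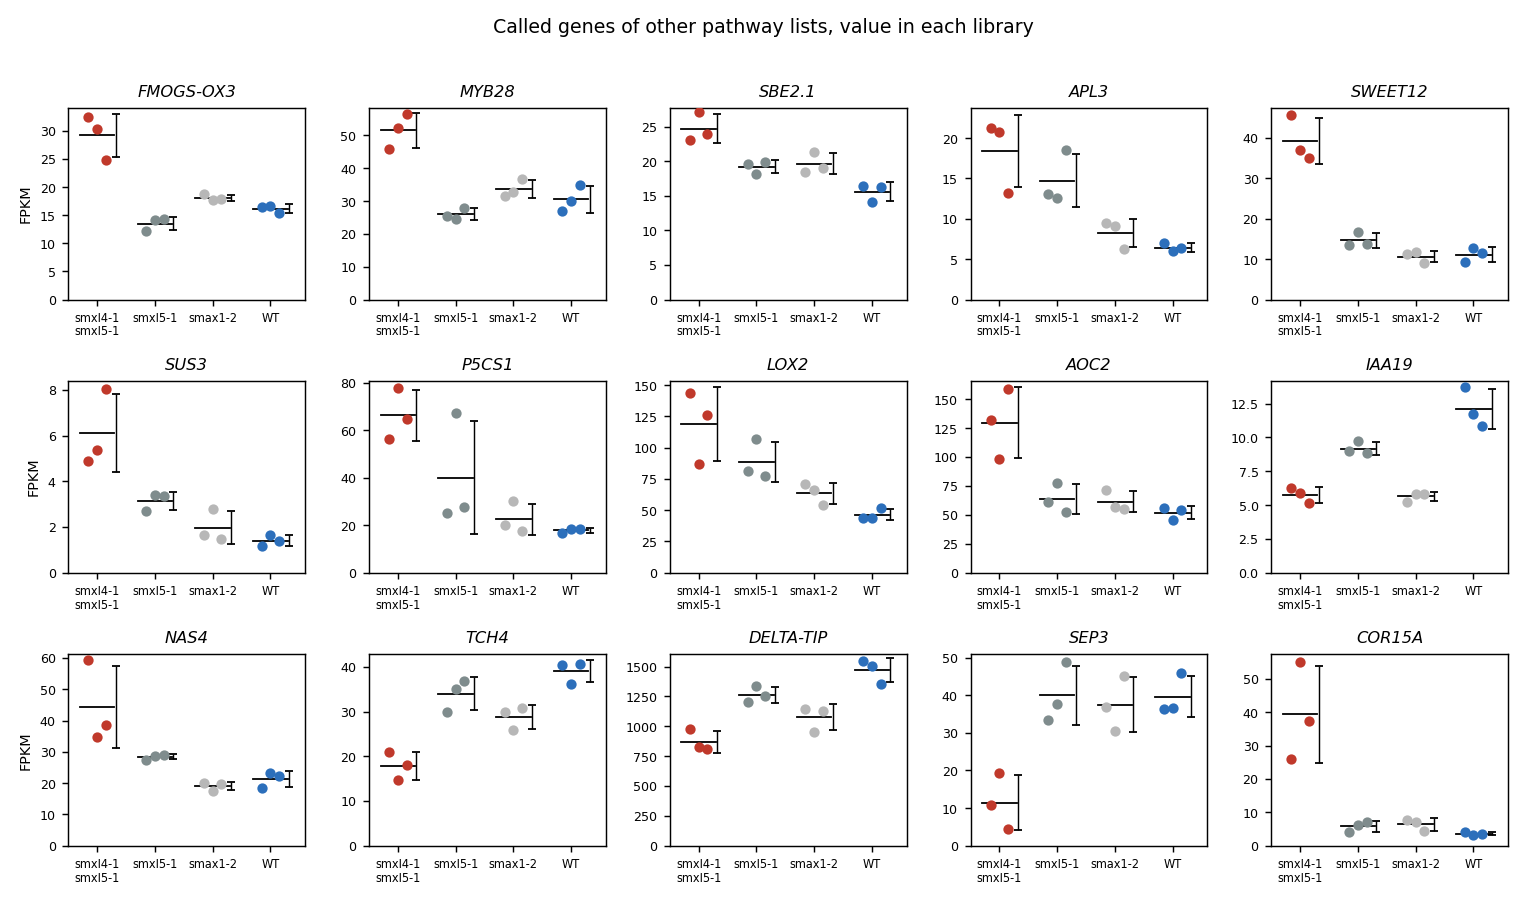
FPKM (y axis, linear, 1 panel per gene) in each library for 15 called genes of other pathway lists, in the group order double mutant, smxl5-1, smax1-2 and WT. Points are libraries, horizontal lines means and bars 1 SD (n = 3). In the panels of IAA19, TCH4, DELTA-TIP and SEP3 the double-mutant points lie below the WT points, and in the rest they lie higher than the WT points.

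Single genes of wall loosening and water flow fell. For comparison, 0.504% of all tested genes were called lower. Of 15 tested genes of wall loosening 1 was called lower and none higher, and the median of -0.54 was the lowest among the lists with at least 3 tested genes. TCH4, a xyloglucan endotransglucosylase, was listed at 20.9, 14.6 and 18.1 FPKM in the double-mutant libraries, against 40.4, 36.2 and 40.7 FPKM in the WT libraries (log2 fold change -1.10 ± 0.13 (SE), adjusted p = 0.00419). The call held whichever library was left out. Of 18 aquaporin genes 3 were called lower and none higher, with a median of -0.24; quantile normalization called 1. DELTA-TIP, a water channel of the vacuole membrane, was listed at 975, 824 and 810.3 FPKM in the double-mutant libraries, against 1546, 1502 and 1355 FPKM in the WT libraries (log2 fold change -0.76 ± 0.11 (SE), adjusted p = 0.0121). The call held without double-mutant replicate 1 or WT replicate 3 and not without any of the other 4 libraries (adjusted p = 0.05 to 0.0644). PIP1C, of the plasma membrane, was listed at 269, 256 and 293 FPKM in the double-mutant libraries, against 373, 377 and 363 FPKM in the WT libraries (log2 fold change -0.45 ± 0.08 (SE), adjusted p = 0.0271). PIP1C kept its call without double-mutant replicate 3 and lost it without each of the other 5 libraries (adjusted p = 0.0738 to 0.111). GAMMA-TIP averaged 486 ± 25.9 FPKM in the double mutant and 673 ± 52.6 FPKM in WT (adjusted p = 0.0457), and lost its call when any 1 of the 6 libraries was left out (adjusted p = 0.0659 to 0.18).

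IAA19, an Aux/IAA repressor that auxin induces in growing seedlings, was the 1 of 15 tested auxin genes called, and it was lower. It was listed at 6.23, 5.88 and 5.12 FPKM in the double-mutant libraries, against 13.8, 11.8 and 10.9 FPKM in the WT libraries (log2 fold change -0.96 ± 0.12 (SE), adjusted p = 0.0055). IAA19 kept its call in each of the 6 fits without 1 library. The smax1-2 libraries had 5.25, 5.85 and 5.85 FPKM, and smxl5-1 stood at 8.97, 9.75 and 8.82 FPKM. SEP3, a MADS-box gene of flower organs, was lower too, at 10.7, 19.2 and 4.45 FPKM in the double-mutant libraries, against 36.4, 36.5 and 45.8 FPKM in the WT libraries. Every WT library lay above every double-mutant library, and the double-mutant values were scattered (log2 fold change -1.89 ± 0.38 (SE), adjusted p = 0.0494). SEP3 stayed called without double-mutant replicate 2, but not when any of the other 5 libraries was left out (adjusted p = 0.0526 to 0.168). The other tested flower marker was not called.

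Of the 44 lists, 19 held at least 1 gene called in the main fit. In most lists no gene was called with both weightings. Among those with at least 3 tested genes, medians lay between -0.18 for copper and 0.37 for karrikin and strigolactone, with photosynthesis at -0.13 (21 genes), xylem and cambium at 0.14 (14 genes), ethylene at -0.03 (15 genes), cytokinin at 0.16 (11 genes) and phosphate starvation at 0.14 (16 genes). The cytokinin median changed sign with effective length, to -0.14 (10 genes). Among the karrikin genes KAI2, the receptor, averaged 47.6 ± 2.73 FPKM in the double mutant and 36.5 ± 0.799 FPKM in WT (adjusted p = 0.17). PSAF, a subunit of photosystem I and the photosynthesis gene with the smallest p, averaged 3278 ± 598 FPKM in the double mutant and 4048 ± 258 FPKM in WT (adjusted p = 0.458). The pathogenesis-related gene PR4 averaged 79.6 ± 10.8 FPKM in the double mutant and 112 ± 4.94 FPKM in WT (adjusted p = 0.0633). A p above the threshold does not show that these genes were alike in the groups.

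**Figure D4:**
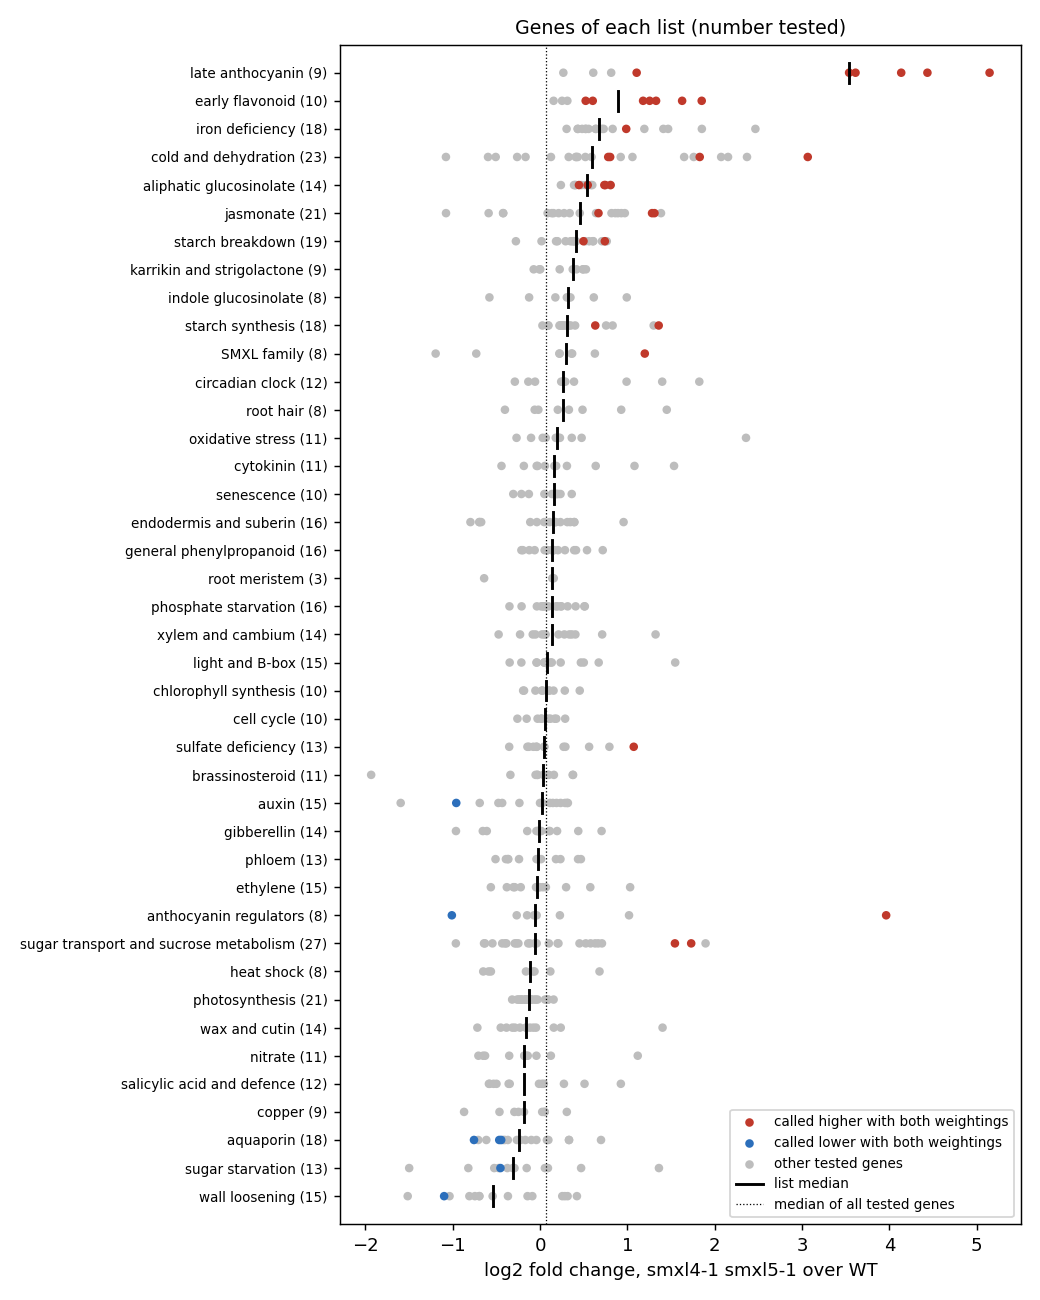
Log2 fold change, double mutant over WT (x axis), of every tested gene in the lists with at least 3 tested genes (rows, number tested in brackets). Black bars are list medians, red and blue points genes called higher and lower with both weightings, and the dotted line the median of all tested genes at 0.07. The late anthocyanin list lies farthest right with a median of 3.54, and wall loosening farthest left with -0.54.

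Several of the 12 genes with the largest rise belong to no list. CLE5 and CLE6 lie next to each other on chromosome 2 and encode small signalling peptides. CLE5 (AT2G31083, chromosome 2, 13252076 to 13252914) was listed at 16.3, 9.28 and 11.0 FPKM in the double-mutant libraries, against 0, 0 and 2.199 FPKM in the WT libraries (log2 fold change 3.13 ± 0.43 (SE), adjusted p = 0.00784). In smxl5-1 it had 6.91, 4.43 and 5.95 FPKM, while smax1-2 had 0 FPKM. The double mutant and smxl5-1 did not differ at the threshold for CLE5 (log2 fold change 0.95, adjusted p = 0.294). CLE6 (AT2G31085, chromosome 2, 13254152 to 13254859) was listed at 4.09, 6.76 and 11.0 FPKM in the double-mutant libraries, against 0 FPKM in all 3 WT libraries (adjusted p = 0.00503). It was at 0 in all smxl5-1 and smax1-2 libraries as well, so it passed the filter for testing only through the double mutant. CLE6 was called whichever 1 library was left out, but the left-out library still counted for the filter. Its p values are therefore not independent support. With effective length the double-mutant values of CLE6 were 1.41, 1.53 and 1.84 FPKM (log2 fold change 1.37, adjusted p = 0.00942). AT3G21460, a glutaredoxin gene, was listed at 9.84, 8.73 and 13.5 FPKM in the double-mutant libraries, against 0 FPKM in all 3 WT libraries (adjusted p = 0.0139), and kept its call without double-mutant replicate 2 and lost it without each of the other 5 libraries (adjusted p = 0.0505 to 0.0616). AT3G21460 also passed the filter only through the double mutant, so its p values are not independent support. AT2G16367 was listed at 112, 177 and 129 FPKM in the double-mutant libraries, against 8.02, 0 and 23.8 FPKM in the WT libraries (log2 fold change 4.51 ± 0.89 (SE), adjusted p = 0.0452). Its WT values were scattered, and it kept its call without WT replicate 2 or WT replicate 3 and lost it without each of the other 4 libraries (adjusted p = 0.099 to 0.138).

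Of the 12 genes with the largest drop, 8 had no listed piece in any double-mutant library. All genes listed in 3 WT and no double-mutant library numbered 47 of 20869 (0.225%), and the reverse held for 77 (0.369%). HEI10, a ligase of meiotic crossovers, was listed at 0 FPKM in all 3 double-mutant libraries, against 18.16, 18.5 and 21.7 FPKM in the WT libraries (adjusted p = 0.00113). MRD1, on the opposite strand and overlapping it on chromosome 1 (19963047 to 19964712 against 19963267 to 19966952), was listed at 0 FPKM in all 3 double-mutant libraries, against 14.2, 11.0 and 16.0 FPKM in the WT libraries (adjusted p = 7.85e-05). With effective length the WT values of MRD1 were 7.61, 5.95 and 8.08 FPKM. The sources used here do not state that strand was kept, so reads of the overlap cannot be told apart. In smxl5-1 HEI10 was listed at 0, 0.679 and 3.43 FPKM and MRD1 at 0, while smax1-2 had 17.9, 17.9 and 23.6 FPKM of HEI10 and 13.9, 22.4 and 28.0 FPKM of MRD1.

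The listing of the other genes at 0 differed between genotypes. AT5G18661 was listed at 0 FPKM in all 3 double-mutant libraries, against 11.9, 12.1 and 21.6 FPKM in the WT libraries (adjusted p = 0.00784), with 65.1, 52.7 and 10.6 FPKM in smax1-2 and no piece in smxl5-1. AT5G27500 (adjusted p = 0.000148) and AT3G01329 (adjusted p = 0.000331) were at 0 in all 9 mutant libraries and at 15.2, 11.2 and 16.3 FPKM and 8.97, 15.5 and 13.7 FPKM in the WT libraries. Both were therefore listed in WT alone among the 4 genotypes. They passed the filter for testing only through the WT libraries, and values at 0 add no spread to the fit. Their p values are therefore not independent support. The AT3G01329 pieces of the WT libraries were short, at 175 to 205 bases. With effective length the WT values of AT3G01329 were 4.15, 5.03 and 4.67 FPKM (log2 fold change -2.49, against -3.75 with plain length). AT3G55605, a mitochondrial glycoprotein family gene, was listed at 0 FPKM in all 3 double-mutant libraries, against 12.8, 15.5 and 13.96 FPKM in the WT libraries (adjusted p = 1.33e-05), and unlike these at 16.1, 10.3 and 18.5 FPKM in smxl5-1. Its annotation overlaps that of P5CS2, which was a single piece of 2515 to 2594 bases in each double-mutant library and also, at 2593 and 2530 bases, in WT replicates 2 and 3, where AT3G55605 was listed. Reads of the overlap may be assigned to either gene. AT4G19430 was listed at 0 FPKM in all 3 double-mutant libraries, against 5.04, 4.62 and 12.9 FPKM in the WT libraries (adjusted p = 0.00784), with 4.04, 2.47 and 2.90 FPKM in smxl5-1. AT1G64360 was listed at 0 FPKM in all 3 double-mutant libraries, against 6.66, 8.57 and 7.89 FPKM in the WT libraries (adjusted p = 0.0173), and lost its call when any 1 of the 6 libraries was left out (adjusted p = 0.0559 to 0.0791).

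The other 4 kept a measurable level. AT2G38390, a class III peroxidase gene, was listed at 2.38, 3.79 and 3.61 FPKM in the double-mutant libraries, against 47.7, 32.7 and 46.0 FPKM in the WT libraries (log2 fold change -3.34 ± 0.32 (SE), adjusted p = 0.000963). AT1G23130, of the polyketide cyclase and lipid transport family, was the most abundant of the 12, at 81.7, 93.7 and 70.1 FPKM in the double-mutant libraries, against 498, 429.5 and 417 FPKM in the WT libraries (log2 fold change -2.44 ± 0.12 (SE), adjusted p = 1.33e-05), and smxl5-1 lay between them at 203, 244 and 229 FPKM. AT4G12545, of the lipid-transfer and seed albumin superfamily, was listed at 10.7, 8.39 and 10.6 FPKM in the double-mutant libraries, against 77.5, 68.3 and 74.2 FPKM in the WT libraries (log2 fold change -2.77 ± 0.18 (SE), adjusted p = 8.17e-05). AIR1, an auxin-induced gene of root cultures and of the same superfamily, was listed at 6.57, 5.35 and 5.97 FPKM in the double-mutant libraries, against 38.7, 40.6 and 42.4 FPKM in the WT libraries (log2 fold change -2.58 ± 0.19 (SE), adjusted p = 0.000154). For each of these 4 genes the WT libraries were far above the double-mutant libraries, and each was called whichever 1 library was left out.

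AT4G12545 and AIR1 lie next to each other on the plus strand of chromosome 4. Their promoters are shown because they share a long run of letters, with the longest run that both share, 30 bases, in capitals.
AT4G12545 (chr4:7433949-7434198, plus strand): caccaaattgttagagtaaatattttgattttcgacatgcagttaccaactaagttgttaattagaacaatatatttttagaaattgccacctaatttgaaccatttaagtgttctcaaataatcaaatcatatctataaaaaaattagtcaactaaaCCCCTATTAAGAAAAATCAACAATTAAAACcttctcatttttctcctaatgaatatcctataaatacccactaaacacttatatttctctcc
AIR1 (chr4:7438865-7439114, plus strand): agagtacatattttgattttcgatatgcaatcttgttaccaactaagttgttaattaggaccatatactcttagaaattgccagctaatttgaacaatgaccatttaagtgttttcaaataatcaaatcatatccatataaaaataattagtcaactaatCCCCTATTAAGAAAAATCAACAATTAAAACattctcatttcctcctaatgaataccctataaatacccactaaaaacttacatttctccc
The run begins 92 bases before the start of AT4G12545 and 90 bases before that of AIR1. The longest shared run was 25 bases for the peroxidase neighbours AT2G38390 and AT2G38380, 12 for CLE5 and CLE6, and 10 for MLP328 and MLP329. Neighbouring copies of a gene may share reads, and how shared reads were assigned is not given in the sources used here. Among the genes called with both weightings, 11 pairs were next to each other in the order of tested genes and changed the same way, 5 higher and 6 lower. Genes of a pair can lie kilobases apart. No share over all pairs of tested genes was computed, so this count is a description.

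**Figure D5:**
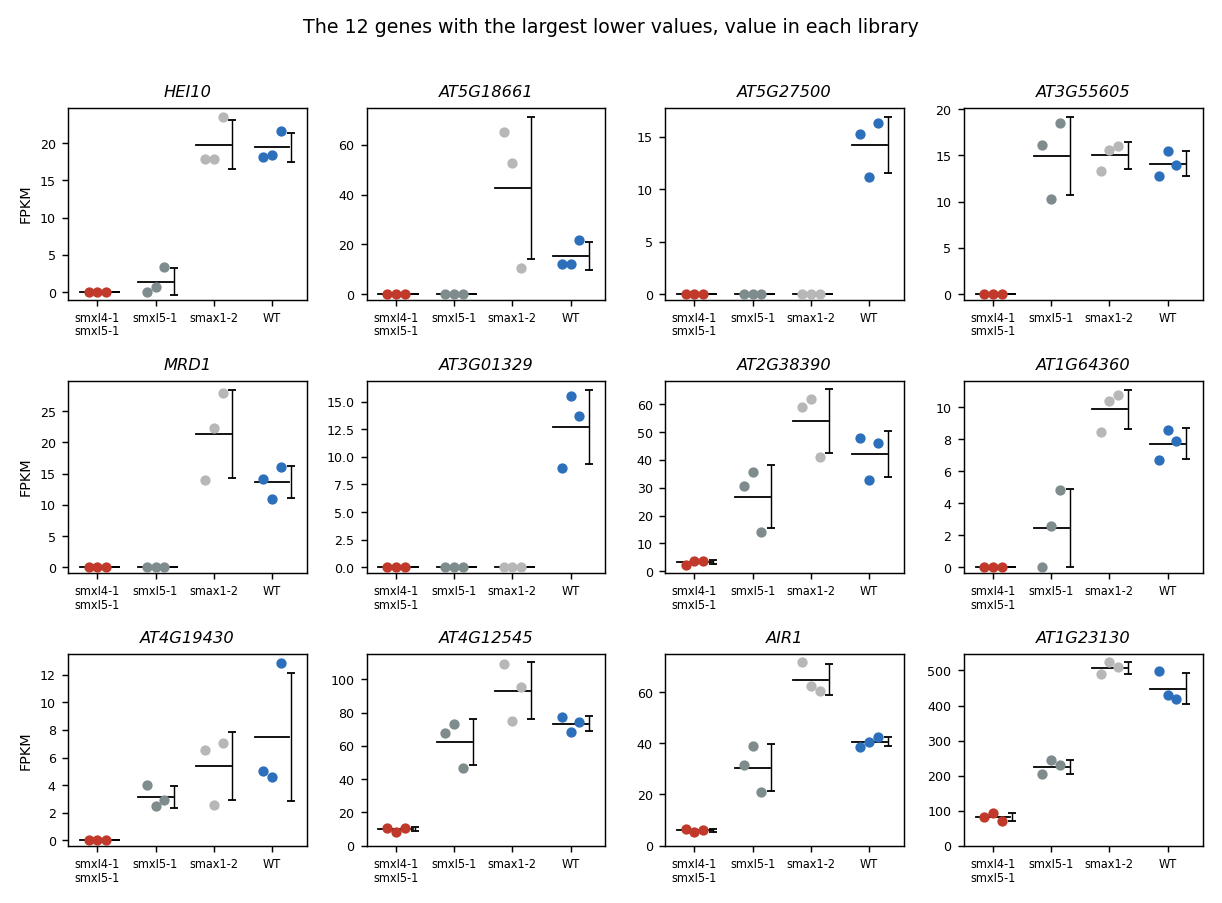
FPKM (y axis, linear, 1 panel per gene) in each library for the 12 genes with the largest drop, in the group order double mutant, smxl5-1, smax1-2 and WT. Points are libraries, horizontal lines means and bars 1 SD (n = 3), and a point at 0 means that no piece was listed. The double-mutant points lie at 0 in 8 panels, and AT5G27500 and AT3G01329 are listed in WT alone.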

How the data were processed

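Per the labels, poly-A RNA was enriched from total RNA of whole seedlings and libraries were made with a kit of NEB. Per the submitters' processing notes, alignment to TAIR10 used TopHat2 2.0.14. The headers are those Cuffcompare writes for pieces assembled by Cufflinks, per the file headers. Not given in the sources used here are the assembler's version, the strand setting and the annotation. The deposited abundance of each piece is in FPKM with confidence bounds, the deposited coverage column is a signal (mean read depth), and the deposited share of each piece is a percent relative to the main piece of its locus, per the file headers. Per the series design, the authors used DESeq2, and that result is not used here.

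A gene's value was the sum over its pieces of class =, c, j, e and o of FPKM times the length of the piece, capped at that of the reference transcript, over that length. Pieces were joined by locus identifier. The libraries' own titles gave the groups and replicate numbers. The deposited tables number double-mutant replicates 1 and 2 the other way round in their names, so those numbers, and the pairing check that uses them, are uncertain, while the groups are not affected. Tests covered genes of 1 FPKM or more in 3 or more of the 12 libraries, with limma 3.58.1 (trend) in R 4.3.3 on log2(FPKM + 1), with 12 libraries and 4 groups in 1 fit. The filter used all 12 libraries even where a fit left some out. CLE6, SWEET13, AT3G21460, AT5G27500, AT3G01329 and MIR171b passed it only through the group where they were high. For these genes the p values are not independent support. P values measure the spread between these replicates. In an alternative fit, lengths were effective lengths for fragments of 200 ± 80 bases, an assumed setting. Only there was the number of fragments implied by the deposited bounds nearly the same for short and long pieces (medians of 15640000 to 21400000 by length class, against 930000 to 17920000 with plain length), so plain length over-weights short pieces. The procedure was tested on simulated data with known changes, set only in genes of higher level. That test does not cover genes with no listed piece in a whole group. Other alternatives were the pseudocount, the filter, 2 scalings, the 6 libraries alone, a replicate block, no trend and leaving out each library.

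The members and the 44 gene lists were chosen with earlier results of these data known. The lists hold 615 genes, of which 549 were tested. The text names the mutated genes and their nearest neighbours. It further names the 12 largest changes of each direction among genes called with both weightings, with at least 5 FPKM on average in the higher group and groups that do not overlap. From each list it takes up to 3 called genes, or 1 where none is called. Any gene outside this rule, and any further called member of a list, was chosen after its values were seen. Promoters and locations come from RefSeq TAIR10.1, which holds 20728 of 20869 genes with a value. Python 3.11.15, numpy 2.4.6, pandas 2.3.3 and matplotlib 3.10.9 were used.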

Additional observations from a re-analysis of the deposited data

Results flagged for a closer look

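Fragments in pieces that were left out of the gene values (intronic, antisense, run-on, intergenic and other unused classes) made up 0.350%, 0.302% and 0.216% of the total in the double-mutant libraries, a mean of 0.289%, against 0.180%, 0.205% and 0.179% in the WT libraries, a mean of 0.188%. Every double-mutant value was above every WT value, which is why it is listed here. The smxl5-1 libraries had 0.227%, 0.156% and 0.174% and the smax1-2 libraries 0.206%, 0.249% and 0.212%, and both groups overlapped the double mutant. Within the double mutant and WT, the part that was high differed between the libraries. In double-mutant replicate 1 antisense pieces held 0.201%, against at most 0.0155% in the other 5 libraries of these groups, and in double-mutant replicate 2 intronic pieces held 0.116%, against at most 0.0595% in the others. Whether these pieces have a part in any gene result was not tested.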

How the results depend on the processing

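Effective length called 448 genes (261 higher and 187 lower), and with quantile normalization as well 435 (219 and 216). The 6 libraries alone called 79 genes higher. A replicate block called 125 (71 and 54). Same-numbered libraries of the groups did not deviate together (correlations of 0.067, -0.011 and -0.010). Double-mutant replicate 1 with WT replicate 2 gave -0.060, and double-mutant replicate 2 with WT replicate 1 gave -0.004. Because the numbers of these double-mutant replicates are uncertain, the check cannot decide whether libraries were paired, and the replicate block has the same limit. Leaving out 1 library called 95 to 149 genes, 51 to 89 higher and 41 to 63 lower. The total stayed within 1.5 times the main count with a pseudocount of 0.1 (219), no filter (231), at least 5 FPKM (208), quantile normalization (194), median-of-ratios scaling (214), the 6 libraries alone (149) and no trend (199). In the effective-length fits added after the data were seen, leaving out 1 library called 196 to 315 genes and a replicate block 310. Over the named genes with a call, 1035 values kept direction and call, 204 kept direction and lost the call, and none reversed, and the causes were not tested. These values are refits of the same libraries and are not independent. The named genes had to be called with effective length, so in that fit their calls were kept by the choice itself. The other effective-length fits in the count are not independent of that choice. Of the values counted, the 6 libraries alone kept 33 calls and lost 21. The fit without WT replicate 1 lost 21, and that without WT replicate 2 lost 20. Depth is known only through estimated fragments, and calls near the threshold rest on 3 libraries a group.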

Other observations

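Called genes outside the lists were also looked at one by one, all chosen after their values were seen, with no count or test of them as a group. ABF3, a bZIP factor of abscisic acid responses, was listed at 64.3, 63.7 and 60.5 FPKM in the double-mutant libraries, against 35.4, 27.1 and 34.2 FPKM in the WT libraries (log2 fold change 0.95 ± 0.13 (SE), adjusted p = 0.00784). HB-7, a homeobox gene induced by drought, was listed at 46.0, 68.5 and 55.9 FPKM in the double-mutant libraries, against 19.9, 21.1 and 22.04 FPKM in the WT libraries (log2 fold change 1.37 ± 0.17 (SE), adjusted p = 0.00419). Its relative HB-12 averaged 34.3 ± 8.10 FPKM in the double mutant and 17.9 ± 0.444 FPKM in WT (adjusted p = 0.0149), and was not called if WT replicate 1, WT replicate 2 or WT replicate 3 was left out (adjusted p = 0.0577 to 0.0682). These 3 encode transcription factors. HIS1-3, a drought-induced linker histone, was listed at 18.7, 21.4 and 19.7 FPKM in the double-mutant libraries, against 4.79, 5.98 and 5.37 FPKM in the WT libraries (log2 fold change 1.72 ± 0.14 (SE), adjusted p = 0.000412). AFP3, which binds ABI5-type factors, was listed at 18.22, 17.63 and 20.7 FPKM in the double-mutant libraries, against 5.22, 5.62 and 6.81 FPKM in the WT libraries (log2 fold change 1.53 ± 0.16 (SE), adjusted p = 0.00166). SAG29, the sucrose carrier SWEET15, was listed at 108, 107 and 67.7 FPKM in the double-mutant libraries, against 16.7, 18.1 and 12.4 FPKM in the WT libraries (log2 fold change 2.49 ± 0.26 (SE), adjusted p = 0.00166). In each of these genes all double-mutant values were above all WT values. Between the double mutant and smxl5-1, ABF3 and HB-12 did not pass (adjusted p = 0.0586 and 0.114).

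Further called genes were chosen in the same way, with no count or test of them as a group. AKN2, an adenylyl-sulfate kinase that feeds sulfate to glucosinolates, was listed at 81.8, 66.4 and 79.9 FPKM in the double-mutant libraries, against 43.3, 43.8 and 44.3 FPKM in the WT libraries (log2 fold change 0.78 ± 0.09 (SE), adjusted p = 0.00419). FMO GS-OX2, beside FMOGS-OX3 on chromosome 1, averaged 13.7 ± 0.653 FPKM in the double mutant and 5.93 ± 1.12 FPKM in WT (adjusted p = 0.0135), and was not called if double-mutant replicate 2, WT replicate 2 or WT replicate 3 was left out (adjusted p = 0.053 to 0.0644). IMS2, which elongates methionine chains, averaged 42.2 ± 16.6 FPKM in the double mutant and 15.8 ± 0.890 FPKM in WT (adjusted p = 0.0213), and was not called if WT replicate 1, WT replicate 2 or WT replicate 3 was left out (adjusted p = 0.0738 to 0.0989). In smxl5-1 IMS2 stood at 36.0, 47.15 and 36.8 FPKM (adjusted p = 0.984 against the double mutant). The smax1-2 libraries had 26.8, 30.3 and 32.8 FPKM of it. AKN2, FMO GS-OX2 and IMS2 act on the supply or the side chains of glucosinolates. TGG2, a myrosinase that breaks glucosinolates down, was lower, at 49.7, 44.1 and 46.3 FPKM in the double-mutant libraries, against 97.8, 92.2 and 113 FPKM in the WT libraries (adjusted p = 0.0371), and lost its call when any 1 of the 6 libraries was left out (adjusted p = 0.0796 to 0.141). In smxl5-1 TGG2 stood at 49.0, 70.8 and 41.5 FPKM (adjusted p = 0.741 against the double mutant). The jacalin-type lectin gene AT1G52000 was listed at 37.3, 32.05 and 37.9 FPKM in the double-mutant libraries, against 5.69, 7.27 and 6.76 FPKM in the WT libraries (log2 fold change 2.28 ± 0.20 (SE), adjusted p = 0.000487). CORI3, a cystine lyase induced by coronatine, was listed at 51.3, 32.3 and 28.1 FPKM in the double-mutant libraries, against 5.24, 5.15 and 5.51 FPKM in the WT libraries (log2 fold change 2.55 ± 0.21 (SE), adjusted p = 0.000427). In smxl5-1 CORI3 stood at 20.6, 24.6 and 21.3 FPKM (adjusted p = 0.129 against the double mutant and 0.00728 against WT).

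Among lower genes, MLP328, of the major latex protein family, was listed at 44.7, 49.1 and 50.4 FPKM in the double-mutant libraries, against 161, 169.5 and 179 FPKM in the WT libraries (log2 fold change -1.80 ± 0.15 (SE), adjusted p = 0.000427). Its neighbour MLP329 averaged 56.3 ± 0.921 FPKM in the double mutant and 118 ± 19.6 FPKM in WT (adjusted p = 0.0289), and kept its call without WT replicate 2 and lost it without each of the other 5 libraries (adjusted p = 0.0767 to 0.116). Both belong to a family of small proteins of unclear function. TCH3, a calmodulin-like gene induced by touch as TCH4 is, was listed at 21.7, 22.2 and 27.2 FPKM in the double-mutant libraries, against 61.3, 54.2 and 56.9 FPKM in the WT libraries (log2 fold change -1.25 ± 0.14 (SE), adjusted p = 0.00238). AT1G64370, beside AT1G64360, was listed at 63.4, 74.4 and 73.8 FPKM in the double-mutant libraries, against 236, 241 and 194 FPKM in the WT libraries (log2 fold change -1.65 ± 0.18 (SE), adjusted p = 0.00209). In smxl5-1 AT1G64370 stood at 96.2, 156 and 103 FPKM (adjusted p = 0.065 against the double mutant). The primary transcript gene MIR171b was listed at 0 FPKM in all 3 double-mutant libraries, against 4.45, 4.80 and 4.51 FPKM in the WT libraries (adjusted p = 0.0055), and it was at 0 in every smxl5-1 and smax1-2 library too. MIR171b passed the filter for testing only through WT, so its p is not independent support.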
